A study of Rattus norvegicus with 8 samples.

Results

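Monoamine transporters are described here in the adrenal glands of neonatal rats: the vesicular monoamine transporters VMAT2 (Slc18a2) and VMAT1 (Slc18a1), and the plasma membrane noradrenaline transporter (Slc6a2). The 3 genes were found by their symbols in the platform's annotation, and they have 4 of the 15923 probe sets on the array, a pair for Slc18a2 and 1 for each of the others. The set was chosen by the hypoxic against normoxic difference of Slc18a2, which was already known. Differences of these transporters between the groups are therefore a description, without a test. The 4 hypoxic samples came from pups raised with their dams in 12% O2 from birth to postnatal day 7, and the 4 normoxic samples from pups of the same age in room air, whose dams fed freely. Each sample was total RNA of a pool of 24 glands stripped of their capsule, read on an array of its own, and the labels name neither strain nor sex. Nothing in the labels says how litters were spread over the pools, so the spread between samples may be partly technical.

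Chromaffin cells of the adrenal medulla make catecholamines in the cytosol and store them in granules. The vesicular transporters load these granules by exchanging protons for amines, and the protons are supplied by the vacuolar ATPase. In rats VMAT1 is known mainly from endocrine cells such as chromaffin cells, and VMAT2 mainly from neurons, although rat chromaffin cells make it too. The noradrenaline transporter works at the cell surface, where it takes released noradrenaline back up together with sodium and chloride.

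The Slc18a2 promoter is shown because Slc18a2 is the transporter gene whose signal differed most between the groups. Of the 3 genes, 1 matched the table of RefSeq promoters (assembly GRCr8). The sequence covers chr1:268399771-268400070 on the plus strand, from 250 bases before to 50 bases after that table's start site, with motif matches in capitals. The gene's own annotated start on this assembly, 268399815, lies earlier in the window, before every marked match.
Slc18a2: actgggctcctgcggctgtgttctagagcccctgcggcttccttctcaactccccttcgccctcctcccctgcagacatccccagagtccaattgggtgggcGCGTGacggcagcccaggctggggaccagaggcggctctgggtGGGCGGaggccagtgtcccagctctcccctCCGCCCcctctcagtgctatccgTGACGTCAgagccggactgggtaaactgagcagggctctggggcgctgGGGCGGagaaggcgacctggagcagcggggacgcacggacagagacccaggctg
The capitals mark matches to 3 motifs searched on both strands, and none of these matches overlaps another. The cAMP response element TGACGTCA, which CREB proteins bind, lies at positions -52 to -45 from the start site, and 1.83% of the 33469 promoters in the table hold it. The core of the hypoxia response element, ACGTG or GCGTG, has 1 match, GCGTG at -148 to -144, and 41.6% of promoters hold at least 1 such core. The Sp1 box GGGCGG has 3 matches, of which the one at -75 to -70 is on the minus strand, and 33.1% of promoters hold it. G and C made up 68.3% of this promoter, against a median of 51.7% over all promoters. Such matches describe the letters of this window and show no binding.

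Values are given as intensities of probe sets, in the arbitrary units of the authors' scaling. Array medians lay between 228.2 and 248.7, and the 27 control probe sets for Bacillus genes had a median intensity of 5.4, which serves as background here, and a 95th percentile of 46.7. Intensities of different probe sets are not comparable as amounts of RNA, so each transporter is compared with itself across pools. Precision is limited by the number of arrays. Genes of the steroid-making cortex and of the medulla were bright: Cyp11a1, the side-chain cleavage enzyme, averaged 19635 ± 3240 in hypoxic and 18384 ± 2421 in normoxic pools, and Th, tyrosine hydroxylase, 9573 ± 1939 and 8743 ± 1784 (SD, n = 4 pools each).

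The brighter Slc18a2 probe set, 1369131_at, had intensities of 470.2, 574.2, 437.7 and 529.4 in hypoxic pools 1 to 4, and of 209.9, 245.7, 310.5 and 223.9 in normoxic pools 1 to 4. All hypoxic pools lay above all normoxic pools. In whole glands, more cells of a type and more RNA per cell cannot be told apart. The means were 503 ± 60.8 in hypoxic and 247.5 ± 44.5 in normoxic pools, a ratio of 2.03. The difference was 0.98 on the log2 scale after 16 was added to each intensity (standard error 0.14, 95% interval 0.68 to 1.29, not adjusted for the number of probe sets). This was the 8th highest log2 difference of 11106 tested probe sets. It is one of the 20 probe sets, 0.180% of those tested, that passed an adjusted p of 0.05 in limma (13 of them higher, 0.117%), and these are the values for which the gene was chosen. The call was lost with the filter on dim probe sets or the variance trend removed, with Gapdh integrity (its 5' over 3' ratio) or the catecholamine enzymes' level as a covariate, and without any single pool other than hypoxic pool 1. The log2 difference was 1.09 with the Gapdh covariate, 0.86 with the enzyme covariate, and from 0.92 to 1.09 with 1 pool left out. In all, 2.76% of tested probe sets had every hypoxic pool above every normoxic pool.

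The second Slc18a2 probe set, 1369132_at, showed a smaller difference. Its intensities were 258.4, 392.7, 407.8 and 323.7 in hypoxic pools 1 to 4, and 144.4, 219.1, 293.9 and 238.5 in normoxic pools 1 to 4. The groups overlapped, since hypoxic pool 1 lay below normoxic pool 3, while normoxic pool 1 was the lowest of all. The means of 346 ± 68.7 in hypoxic and 224 ± 61.8 in normoxic pools gave a ratio of 1.54. The log2 difference was 0.61 (standard error 0.20, 95% interval 0.17 to 1.05), and it did not pass the limma threshold; with the enzyme covariate it was 0.28. Relative to their means the pools spread more on this probe set, by 19.9% in hypoxic and 27.6% in normoxic pools, than on the brighter one, by 12.1% and 18.0%.

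Slc18a1, which encodes VMAT1, differed less. Probe set 1387999_at had intensities of 698.3, 772.4, 788.6 and 814.2 in hypoxic pools 1 to 4, against 602.6, 784.9, 624.8 and 573.7 in normoxic pools 1 to 4. Normoxic pool 2 lay among the hypoxic pools, and the other 3 normoxic pools lay below all of them. The means were 768 ± 49.8 in hypoxic and 646.5 ± 94.6 in normoxic pools, a ratio of 1.19. On the log2 scale the difference was 0.25 (standard error 0.11, 95% interval 0.0012 to 0.50), which placed it at rank 754 of 11106, and it did not pass the limma threshold. With the Gapdh covariate the difference was 0.17, and with the enzyme covariate 0.13.

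Slc6a2, the noradrenaline transporter gene, was close to background. Probe set 1387418_a_at had intensities of 50.9, 29.7, 82.7 and 57.3 in hypoxic pools, and of 25.4, 45.1, 55.5 and 54.1 in normoxic pools, each in the order of the pool numbers. The groups overlapped throughout, 5 of the 8 values (3 hypoxic and 2 normoxic) exceeded the 95th percentile of the Bacillus controls, and none exceeded the highest control value of 83.5. Its mean level fell below the signal of 95.2 under which probe sets were left untested, so 3 of the 4 transporter probe sets were tested. The means were 55.2 ± 21.8 in hypoxic and 45.0 ± 13.9 in normoxic pools. The log2 difference of 0.20, from a fit of all probe sets, had a 95% interval of -0.39 to 0.79, so neither a rise nor a fall was detectable at this signal.

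**Figure D1:**
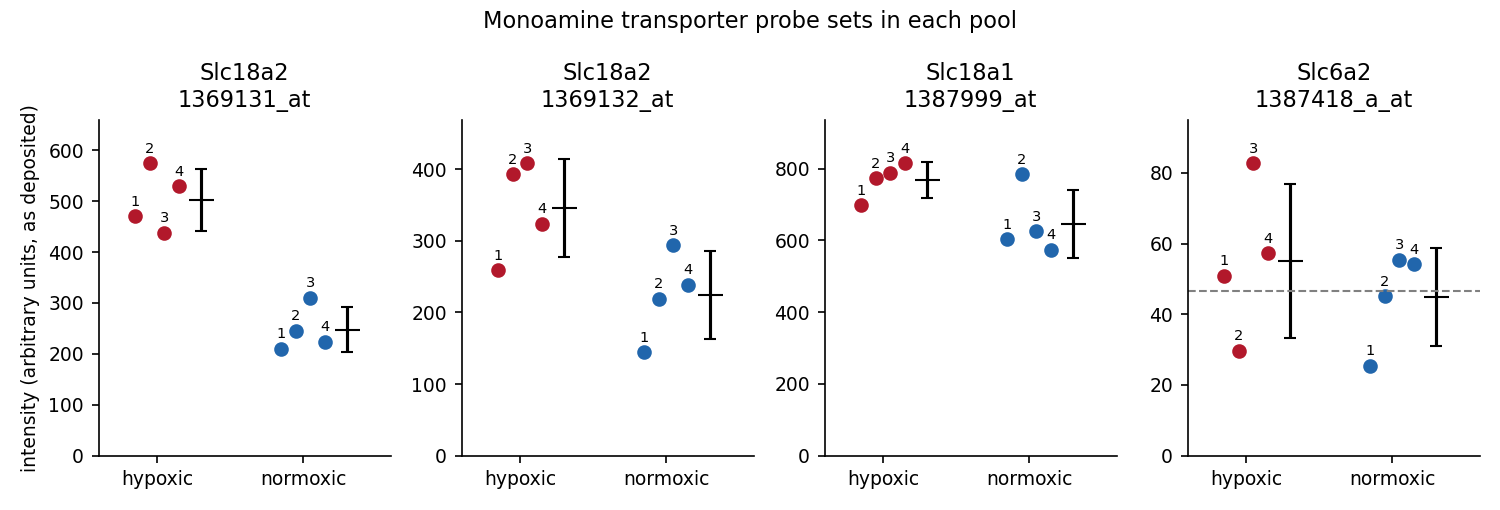
Deposited intensity (arbitrary units, axes from 0) of each transporter probe set in the 4 hypoxic pools (red, left) and the 4 normoxic pools (blue, right), with pool numbers above the points and the mean ± SD beside them. The groups are apart only for Slc18a2 on 1369131_at; the dashed line in the Slc6a2 panel is the 95th percentile of the Bacillus controls, 46.7.

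The balance between the vesicular transporters was followed as the ratio of Slc18a2 to Slc18a1 intensity within each pool. The size of such a ratio depends on how strongly each probe set responds, so only its difference between pools is read. With the brighter Slc18a2 probe set, the ratio was 0.673, 0.743, 0.555 and 0.650 in hypoxic pools 1 to 4, and 0.348, 0.313, 0.497 and 0.390 in normoxic pools 1 to 4. The ratio was higher in every hypoxic pool than in every normoxic pool, with hypoxic pool 3 and normoxic pool 3 nearest to each other. It averaged 0.655 ± 0.0778 in hypoxic and 0.387 ± 0.0797 in normoxic pools, a log2 difference of 0.73 (standard error 0.16, 95% interval 0.34 to 1.13). This ratio contains the values for which Slc18a2 was chosen, so it carries no test.

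With the second Slc18a2 probe set the ratio was 0.370, 0.508, 0.517 and 0.398 in hypoxic pools 1 to 4, and 0.240, 0.279, 0.470 and 0.416 in normoxic pools 1 to 4. Here the groups overlapped: normoxic pools 3 and 4 lay above hypoxic pools 1 and 4. The means were 0.448 ± 0.0754 in hypoxic and 0.351 ± 0.110 in normoxic pools. The log2 difference, again with 16 added to each intensity, was 0.36 (95% interval -0.24 to 0.96). The separation of the ratio by group therefore held on only 1 of the Slc18a2 probe sets.

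**Figure D2:**
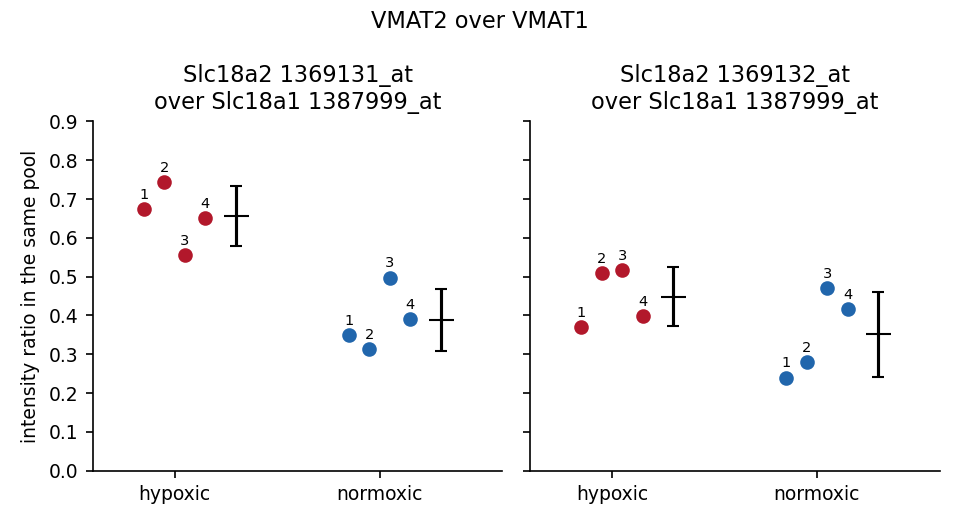
Ratio of Slc18a2 to Slc18a1 intensity in the same pool, for each Slc18a2 probe set, in hypoxic (red, left) and normoxic (blue, right) pools, with pool numbers and the mean ± SD. On 1369131_at the hypoxic pools run from 0.555 to 0.743 and the normoxic pools from 0.313 to 0.497; on 1369132_at the groups overlap.

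The Slc18a2 probe sets did not keep a constant ratio to each other. Intensity on 1369131_at over that on 1369132_at was 1.82, 1.46, 1.07 and 1.64 in hypoxic pools 1 to 4, and 1.45, 1.12, 1.06 and 0.939 in normoxic pools 1 to 4. The control probe sets for the 5' and 3' ends of beta-actin give a ratio that is lower where RNA is degraded or cDNA is shorter, and it was 0.249, 0.491, 0.713 and 0.528 in hypoxic pools, and 0.413, 0.597, 0.744 and 0.674 in normoxic pools. Pool 1 of each group had the lowest beta-actin ratio of its group and the highest ratio between the Slc18a2 probe sets. After group means were subtracted, the log2 ratio of the probe sets and the log2 beta-actin ratio had a Pearson r of -0.85 over 8 pools (exact permutation within groups, two-sided, p = 0.0260) and a Spearman rho of -0.80 (exact p = 0.0625). Without the 2 pools farthest from the median beta-actin ratio r was -0.75.

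For the dimmer probe set and the beta-actin ratio the group-centred relation was positive (r = 0.86, exact permutation p = 0.00694; rho = 0.90, exact permutation p = 0.0243; r = 0.53 without the 2 farthest pools). The brighter probe set had an r of 0.29 (exact permutation p = 0.493), which turned to -0.34 without the 2 farthest pools. Slc6a2 had the same rho as the dimmer probe set, 0.90 (exact permutation p = 0.0243). Its r was 0.56 (exact permutation p = 0.188), and 0.72 without the 2 farthest pools. For Slc18a1 r was 0.35 (exact permutation p = 0.345), and -0.32 without the 2 farthest pools. These relations were looked for after the values were seen, and the permutations treat the pools as independent, which the labels do not settle. Over the 10 computed, with beta-actin and Gapdh, the adjusted exact permutation p was 0.0694 for r of the dimmer probe set and 0.130 for that of the ratio, so none passed. With that beta-actin ratio in the fit as a covariate, also added after seeing the data, the log2 difference of Slc18a2 was 1.02 on 1369131_at and 0.81 on 1369132_at, and that of Slc18a1 was 0.29. In that fit 1369132_at passed the limma threshold too (limma adjusted p = 0.0487), among 37 probe sets in all. It passed in no other setting. The gene was chosen by this contrast and the covariate after the values were seen, so the call carries no test. The part of RNA integrity in the smaller difference on 1369132_at was not tested beyond this fit.

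**Figure D3:**
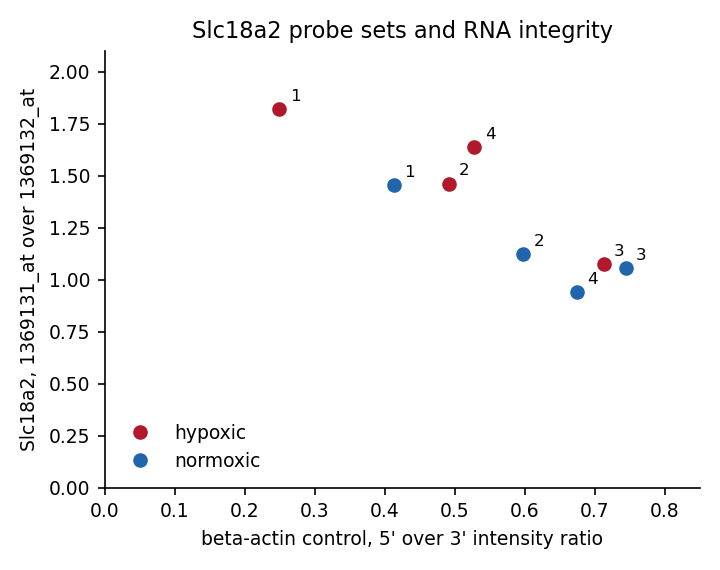
Ratio of the intensities of the Slc18a2 probe sets (vertical axis) against the beta-actin 5' over 3' intensity ratio (horizontal axis) in the 4 hypoxic (red) and 4 normoxic (blue) pools, numbered. The ratio between probe sets is highest, 1.82, in hypoxic pool 1, where the beta-actin ratio is lowest, 0.249.

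The transporters were also set against the mean log2 level of the catecholamine enzymes Th, Ddc, Dbh and Pnmt in the same pool. That mean was higher in hypoxic pools by 0.27 (95% interval -0.094 to 0.64). Relative to it, Slc18a2 on 1369131_at was higher in hypoxic pools by 0.71 (95% interval 0.34 to 1.08). Every hypoxic pool lay above every normoxic pool. This relative level contains the values for which Slc18a2 was chosen, so it carries no test. On 1369132_at the relative difference was 0.34 (95% interval -0.077 to 0.75), with overlap. For Slc18a1 the relative difference was -0.023 (95% interval -0.31 to 0.27).

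Within the groups the transporters did not move together detectably. After group means were subtracted, Slc18a2 on 1369131_at and Slc18a1 had an r of 0.21 over 8 pools (exact permutation within groups, two-sided, p = 0.689; rho = 0.30, exact p = 0.559; r = 0.56 without the 2 farthest pools). The probe sets of Slc18a2 had an r of 0.59 with each other (exact permutation p = 0.181; rho = 0.30, exact p = 0.559), which fell to 0.15 without the 2 pools farthest from the median. Of the 6 pairs among the 4 probe sets, none passed, with adjusted exact permutation p-values for r from 0.625 to 0.866.

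The genes whose log2 values over the 8 pools were most like those of Slc18a2 on 1369131_at, out of 8010 other named genes, were the protein kinase A catalytic subunit gene Prkacb (r = 0.98), the lipid phosphatase gene Plpp3 (0.97), the NAD-synthesis gene Nmnat3 (0.97), the secreted Wnt antagonist gene Sfrp4 (0.97) and the mitochondrial folate enzyme gene Mthfd2 (0.96). After group means were subtracted, these had an r of 0.88, 0.79, 0.87, 0.93 and 0.74 in the same order. Sfrp4 averaged 931 ± 122 in hypoxic and 581 ± 119 in normoxic pools. For Slc18a1 the most like genes were Larp1 (0.97), Stk10 (0.95), Mgat4a (0.95), Vrk3 (0.94) and Olfm1 (0.94), and none of the 5 was shared with Slc18a2. For Slc6a2 they were Rplp0 (0.97), Cyp11a1 (0.95), Nhsl3 (0.95), Rab3d (0.95) and Slc25a5 (0.94), of which Rplp0, a ribosomal protein gene, differed by only 0.028 on the log2 scale between the groups. The highest of so many correlations over 8 pools are high by selection, and they describe the pattern only.

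Lists of related genes were counted next. Over all tested probe sets 0.180% passed limma, so a count of 0 in lists this short lies near that share. Other transporters of amines and organic cations were the first list. Of 10 listed genes 7 had a probe set and 3 were bright enough to be tested, of which 0 passed limma and 0 had an unadjusted p under 0.05 (8.64% over all tested probe sets), with a median log2 difference of 0.054 against -0.019 over all tested probe sets. Slc6a4, the serotonin transporter, averaged 449 ± 33.9 in hypoxic and 436 ± 78.6 in normoxic pools (log2 difference 0.054). Slc22a5, the carnitine transporter, differed by 0.10. Slc6a3, the dopamine transporter, differed by -0.011. Slc18a3, the vesicular acetylcholine transporter of the same family as the VMATs, was at background, with 8.38 ± 5.16 in hypoxic and 9.55 ± 4.28 in normoxic pools.

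Among enzymes that make or break down catecholamines, 9 of 12 listed genes were tested. None passed limma, and 2 had an unadjusted p under 0.05 (0.180% and 8.64% over all tested probe sets). At the brightest tested probe set of each gene, all 9 log2 differences were above 0, against 45.2% over all tested probe sets. Their median was 0.15. The second tested probe sets of Ddc and Gch1 lay below 0, at -0.056 and -0.15. Ddc, which makes dopamine, averaged 2722 ± 85.9 in hypoxic and 2127 ± 215 in normoxic pools (log2 0.36, limma adjusted p = 0.232), and Dbh, which turns dopamine into noradrenaline inside the granule, 6377 ± 1217 and 4411 ± 544 (log2 0.52, limma adjusted p = 0.246). Th differed by 0.13 and Pnmt, which makes adrenaline, by 0.089. None of these enzymes had a log2 difference as large as that of Slc18a2 on either probe set, a comparison of values without a test.

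The vacuolar ATPase, whose proton gradient drives vesicular loading, had 15 tested genes of 20 listed. In limma 0 passed and 3 had an unadjusted p under 0.05, against 0.180% and 8.64% over all tested probe sets. Of the log2 differences 12 were above 0 and 3 below, with a median of 0.14. Over all tested probe sets 45.2% were above 0. Atp6ap1, an accessory subunit, averaged 2818 ± 201 in hypoxic and 2232 ± 102 in normoxic pools, without overlap (log2 0.33, limma adjusted p = 0.236). Atp6v1a, a catalytic subunit gene, had a log2 difference of 0.27, and Atp6v1b2 one of 0.30. On their dimmer tested probe sets these genes differed by 0.12 and 0.061, each with overlap between groups.

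Of 20 listed genes for other granule contents and membrane proteins, 14 were tested. In limma 0 passed and 7 had an unadjusted p under 0.05, against 0.180% and 8.64% over all tested probe sets. Their median log2 difference was 0.17, with 13 above 0 (45.2% over all tested probe sets). Npy, the neuropeptide Y gene, had a log2 difference of 0.56 (limma adjusted p = 0.0844), the secretogranin gene Scg3 one of 0.59 (limma adjusted p = 0.122) and Pam, the peptide-amidating enzyme gene, one of 0.43 (limma adjusted p = 0.122), each without overlap between groups. Sv2b, a synaptic vesicle glycoprotein gene, was the exception: it averaged 1274 ± 173 in hypoxic and 1614 ± 141 in normoxic pools, again without overlap (log2 -0.34, limma adjusted p = 0.395). Over all tested probe sets 5.39% had groups without overlap.

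Of 9 listed partners of the noradrenaline transporter, 6 were tested, and 0 passed limma (0.180% over all tested probe sets). Of the 6, 1 had an unadjusted p under 0.05, a share near the 8.64% over all tested probe sets. This was Nsf, the ATPase that takes SNARE complexes apart, at a log2 difference of 0.62 (limma adjusted p = 0.0800). On its dimmer tested probe sets Nsf differed by 0.91 without overlap (limma adjusted p = 0.0844) and by 0.57 with overlap. The median of the list was 0.019. Of 9 transcription factors of the chromaffin lineage, 6 were tested, with a median of 0.024. In limma 0 passed and 0 had an unadjusted p under 0.05, against 0.180% and 8.64% over all tested probe sets. Phox2a differed by 0.0031 and Hand2 by 0.23.

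Nerve cells, mast cells and platelets also use VMAT2, so their markers are given beside it. Of 12 sympathetic neuron markers 10 were tested, with a median log2 difference of 0.26 and 9 above 0 (45.2% over all tested probe sets). Of the 10, 1 passed limma, against 0.180% over all tested probe sets. This was Nefh, the heavy neurofilament gene, at 260 ± 61.1 in hypoxic and 100.4 ± 18.2 in normoxic pools (log2 1.23, limma adjusted p = 0.0325). An unadjusted p under 0.05 was found for 4 of the 10, against 8.64% over all tested probe sets. Like that of Slc18a2, the Nefh call was lost without any single pool other than hypoxic pool 1, with the dim-signal filter or the variance trend removed, and with the Gapdh or enzyme covariate. The summed intensity of the tested markers ran from 5981 to 6927 in hypoxic and from 4811 to 6115 in normoxic pools. These markers leaned the same way as Slc18a2, and chromaffin cells make several of them too; their part in its difference was not tested.

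Of 13 mast cell markers 3 were tested. In limma 0 passed, and 0 had an unadjusted p under 0.05 (0.180% and 8.64% over all tested probe sets). Their summed intensity ran from 293 to 583 in hypoxic and from 279.6 to 409 in normoxic pools, with a median log2 difference of 0.32. The tested ones were Hdc, which makes histamine (log2 0.32), the protease gene Tpsb2 (0.60, 95% interval -0.45 to 1.64) and Cpa3 (0.17). The high-affinity IgE receptor gene Ms4a2 was near background at 47.3 ± 12.4 in hypoxic and 46.7 ± 11.7 in normoxic pools. The part of mast cells in the Slc18a2 difference was not tested.

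All 4 tested platelet markers of 10 listed had a log2 difference below 0, with a median of -0.10. Over all tested probe sets 45.2% were above 0. The platelet markers' summed intensity ran from 690.3 to 852.5 in hypoxic and from 803 to 915 in normoxic pools. In limma 0 passed and 1 had an unadjusted p under 0.05 (0.180% and 8.64% over all tested probe sets). Pf4, platelet factor 4, averaged 361 ± 54.7 in hypoxic and 397 ± 39.3 in normoxic pools. Markers of the cortex (8 tested) had a median log2 difference of 0.020, and those of Schwann cells (6 tested) 0.030. Each list had 0 past limma and 0 at an unadjusted p under 0.05 (0.180% and 8.64% over all tested probe sets). Of adipocyte markers 7 were tested, all 7 below 0, with a median of -0.15. They had 0 past limma and 1 at an unadjusted p under 0.05 (0.180% and 8.64% over all tested probe sets). Ucp1, the uncoupling protein gene of brown fat, was the lowest at -1.46 (limma adjusted p = 0.502).

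**Figure D4:**
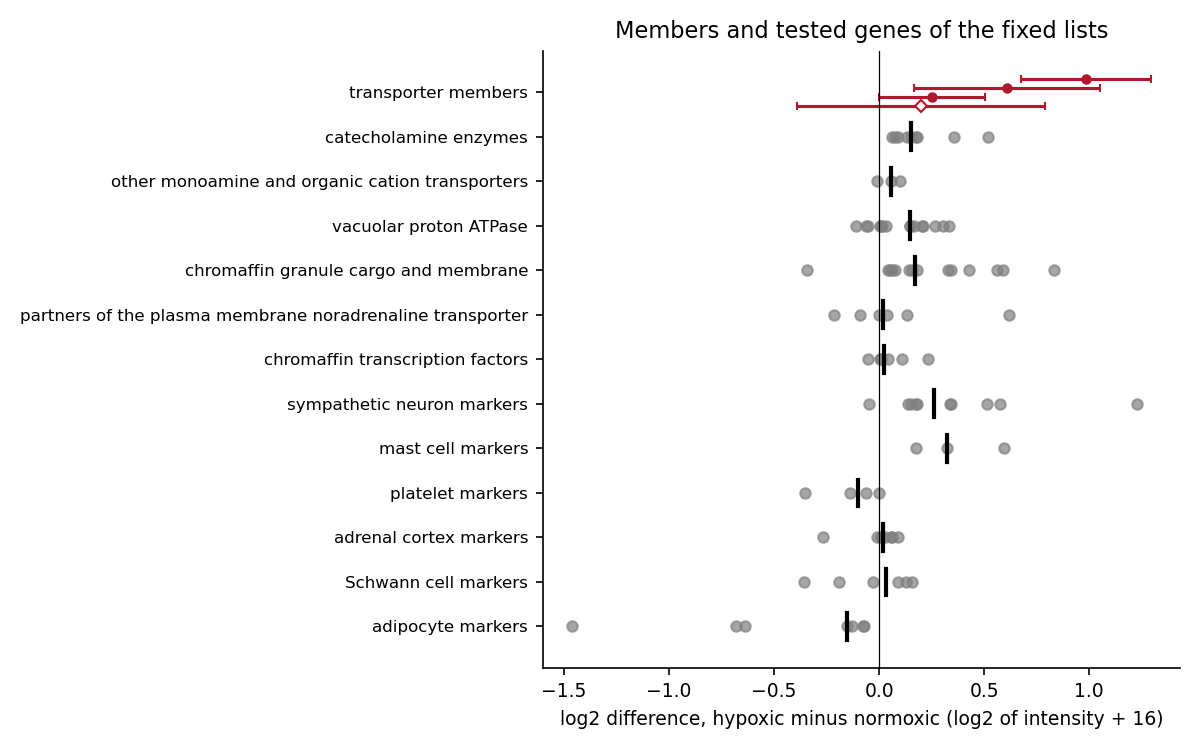
Log2 difference (hypoxic minus normoxic, of intensity + 16) of the transporter probe sets, from top to bottom Slc18a2 1369131_at, Slc18a2 1369132_at, Slc18a1 and Slc6a2 (open diamond, untested), with 95% intervals, and of each tested gene of the 12 lists (grey points, black line at the median). Slc18a2 on 1369131_at lies at 0.98, above every listed gene except Nefh at 1.23.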

How the data were processed

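RNA of 8 pools was measured on 1-colour arrays after labelling as biotin cRNA, per the labels' protocols. The authors deposited a linear intensity for each probe set, already scaled, as the values show (every array mean was 500.1 with 2% trimmed from each end); the software behind these summaries is not named in the labels. Values under 1 were set to 1, 16 was added and log2 taken, with no further normalization. After 57 control probe sets were set aside, those with a mean below the 30th percentile were left untested, which kept 11106. These were fitted with limma 3.58.1 in R 4.3.3 (eBayes with a variance trend, two-sided, Benjamini-Hochberg adjustment, threshold 0.05), and the steps were tested on simulated data. Intervals for ratios use the pooled spread of pools within groups. Python 3.11.15, pandas 2.3.3 and matplotlib 3.10.9 made the other values and plots. Symbols are those of the platform annotation.

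The transporters, the gene lists and the tests were chosen with earlier results of these data known. A listed gene is represented by its brightest tested probe set. Genes named are the 3 transporters, the 4 main catecholamine enzymes, listed genes past the threshold or among the 4 lowest p of a list, and the 5 genes most correlated with each transporter. Slc18a3, Ms4a2, Phox2a, Sv2b and Vgf were added after their values were seen. The alternatives tried were other offsets, filters, normalization, covariates, a replicate block, other probe sets, and leaving out each pool.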

Additional observations from a re-analysis of the deposited data

Results flagged for a closer look

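Among 108 groups of 4 pools examined, 5 had 1 pool far from the others, by a gap beyond Dixon's 95% critical share of the group's range, a limit that chance passes in about 5% of groups. None of them belongs to a transporter of the set or to the VMAT2 to VMAT1 ratio. Slc6a4, the serotonin transporter, had a hypoxic pool at 499.8, above the other 3. Tbxas1 had a hypoxic pool at 197.3, above the rest of its group, and Hand1 a hypoxic pool at 88.3, below the rest. Hand2 had a normoxic pool at 718.9 and Itga2b a normoxic pool at 154.4, each above the rest of its group.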

How the results depend on the processing

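The log2 difference of each Slc18a2 probe set and of Slc18a1, and that of the VMAT2 to VMAT1 ratio, stayed above 0 under every alternative run. With 1 pool left out, Slc18a2 ranged from 0.92 to 1.09 on 1369131_at and from 0.43 to 0.75 on 1369132_at, Slc18a1 from 0.20 to 0.35, Slc6a2 from 0.025 to 0.40 and the ratio from 0.64 to 0.85. With the enzymes' mean as a covariate, Slc18a2 on 1369132_at came to 0.28 and Slc18a1 to 0.13 (0.17 with the Gapdh ratio). The ratio's difference moved to 0.36 on the other Slc18a2 probe set, and Slc6a2 turned to -0.14 with the enzymes' mean as a covariate; the cause was not tested. The count of 20 calls was 0 with no filter, with no variance trend, and with the Gapdh ratio or the enzymes' mean as a covariate, 37 with the beta-actin ratio, and from 0 to 31 with 1 pool left out. Slc18a2 on 1369131_at passed in 7 of 18 alternatives. The labels do not say whether the replicate numbers pair the pools. Deviations of same-numbered pools correlated at 0.32, 0.0026, 0.19 and -0.043, and not every pool was most like its own number. The beta-actin ratio placed the pool numbers in the same order in both groups. Whether same-numbered pools are independent is therefore not settled. With the replicate block the count was 18, without Nefh. The block cannot move a difference in this balanced design (0.98 for Slc18a2). Without the 2 farthest pools, correlations moved to 0.15 between the Slc18a2 probe sets, to 0.56 and -0.48 between Slc18a1 and the brighter and dimmer of them, and to 0.18 between the dimmer one and Slc6a2. Counts of list members called did not change with any tested probe set of a gene. Signal near background limits Slc6a2.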
